A study of Mus musculus with 9 samples.

Results

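The collagen genes were taken as every symbol of the feature table made of Col, a number, a and a second number, which gave 44 of 32286 features. They comprised 11 fibrillar collagens, 8 collagens of basement membranes and 25 others, which build microfibrils, networks and anchors, sit on fibrils or span the cell membrane. Their levels were read in 9 tumours that had grown from 168FARN, a mouse mammary tumour cell line, after injection into a mammary fat pad of female BALB/c mice, with a droplet method that reads the 5′ end of the transcripts of single cells. 3 tumours came from WT cells, 3 from Kmt2c KO and 3 from Kmt2d KO cells. Kmt2c and Kmt2d encode histone methyltransferases that act mainly at enhancers. The knockouts had been made with Cas9 and a pool of guides and used as an edited population, so the tumours of a genotype repeat the mouse and not the knockout. Tumour cells of all genotypes carried H2BMc, the transcript of a transduced H2B–mCherry reporter, while fibroblasts, mural, endothelial and immune cells were those of the unedited host. The study gives the age at which mice were bought, while the sources used here give no age at collection.

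Collagens are secreted proteins whose chains wind around each other into a helix, assemble outside the cell and give tissues their mechanical strength. Fibrillar collagens (types I, II, III, V, XI, XXIV and XXVII) form the fibres of connective tissue, types IV, XV and XVIII belong to the sheet on which epithelial and endothelial cells rest, and type VI forms beaded microfibrils between them. In mammary tumours, fibroblasts are the best known source of fibrillar collagen, whereas epithelial and endothelial cells contribute to their own basement membranes.

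For reference beside the values, the 250 bases before the annotated start of 3 members are shown, 5′ to 3′ along the gene, in the RefSeq annotation of mouse build GRCm38.p6. They were chosen as the collagen that fell furthest in Kmt2c KO tumour cells (Col3a1, chr1:45311288-45311537, plus strand), a type I chain that was low in tumour cells and high in fibroblasts (Col1a2, chr6:4505368-4505617, plus strand) and the collagen that was higher in tumour cells than in each host class (Col8a1, chr16:57754738-57754987, minus strand). Capitals mark matches on either strand to the core of the TATA box, spelt TATAAA, to the CCAAT box and to the GC box, spelt GGGCGG.
Col3a1: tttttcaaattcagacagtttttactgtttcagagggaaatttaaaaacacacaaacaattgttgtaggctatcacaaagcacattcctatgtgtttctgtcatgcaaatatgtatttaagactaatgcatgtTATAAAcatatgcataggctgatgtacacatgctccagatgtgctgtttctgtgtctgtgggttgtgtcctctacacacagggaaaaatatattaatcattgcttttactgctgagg
Col1a2: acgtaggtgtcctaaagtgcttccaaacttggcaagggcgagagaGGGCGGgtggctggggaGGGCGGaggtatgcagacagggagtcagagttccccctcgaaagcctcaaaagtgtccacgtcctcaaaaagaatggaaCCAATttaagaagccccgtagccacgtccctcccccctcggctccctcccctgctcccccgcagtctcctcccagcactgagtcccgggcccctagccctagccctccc
Col8a1: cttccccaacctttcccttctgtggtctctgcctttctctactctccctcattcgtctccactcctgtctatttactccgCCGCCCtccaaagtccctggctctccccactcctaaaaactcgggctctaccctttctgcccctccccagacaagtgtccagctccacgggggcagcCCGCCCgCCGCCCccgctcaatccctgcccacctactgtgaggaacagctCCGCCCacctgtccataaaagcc
The Col3a1 window held 1 TATA box match, no CpG and 35.2% G and C. The Col1a2 window held 1 CCAAT box and 2 GC box matches with 11 CpG, and the Col8a1 window 4 GC box matches with 10 CpG. Of all 32851 promoter windows of this length, 12.4% held a TATA box, 33.8% a CCAAT box and 32.7% a GC box, with a median of 6 CpG. RefSeq windows were matched for 35 of the 44 collagens, as 38 windows, of which 13.2%, 34.2% and 57.9% held the same motifs, with a median of 9.5 CpG. These matches are letters in a window and do not show binding.

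Depth differed between the 9 libraries, from 21529691 to 125617312 unique molecular identifiers (UMIs) of 585680611 in all, spread over 89147 barcodes, and 939 to 14525 cells per library passed the filters, 58645 in all. Depth went with genotype. The WT libraries held 21529691 to 30007715 UMIs and 939 to 2380 kept cells, the knockout libraries 65813392 to 125617312 and 5997 to 14525. Per tumour cell the median was 13729 to 24081 UMIs in WT, 8661 to 11824 in Kmt2c KO and 11222 to 14789 in Kmt2d KO. The part of depth in differences from WT was not tested. Pairs of libraries shared 2 to 206 barcodes of kept cells, at most 2.28% of the smaller library. Cells with an H2BMc UMI were taken as tumour cells (16707 cells, 361 to 3434 per tumour, the WT tumours with 361 to 925), and 79.9% of them held Krt8, a keratin of luminal epithelium. Krt18, the other keratin on the marker list, was in only 0.138% of them (31 UMIs). Kmt2c (42.0 to 57.6 UMIs per 1000000) and Kmt2d (14.9 to 31.9) were not called lower in tumour cells of their own knockouts, and counts from the 5′ end need not show small edits, so they give no check of the genotype labels. Kmt2d KO 2 stood nearer to the mean of the Kmt2c KO tumours than to that of the WT tumours for 10 of the 12 collagens called below, while Kmt2d KO 1 and Kmt2d KO 3 did so for 4 and 5, and the main values that turn on it are also given without it. These 12 were picked by the test of Kmt2c KO against WT, and the same count over all genes was not made. Without Kmt2d KO 2 the share of all genes called rose from 18.7 to 29.1% for Kmt2c KO against WT. It rose from 2.27 to 5.79% for Kmt2d KO against WT and from 0.0781 to 19.7% between the knockouts. As the library was picked out on collagens, calls gained without it are no independent support. Numbers after a genotype only name libraries.

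Levels are given as CPM, the UMIs of a gene per 1000000 UMIs of a cell class in a tumour. 1 UMI stands for 1 transcript, so gene length does not enter. Host cells were gated on fixed marker genes, none a collagen, and had no H2BMc or Krt8 UMI. Fibroblasts numbered 165 (4 to 46 per tumour), mural cells, the pericytes and smooth muscle cells of vessels, 100 (3 to 22), endothelial cells 386 (29 to 61) and immune cells 1213 (63 to 351). Most of the 58645 kept cells met no gate and are not described. A tumour cell with neither an H2BMc nor a Krt8 UMI could enter a host class if it held the markers. The fixed fibroblast markers Pdgfra and Scara5 were also present in 52.0% and 58.4% of tumour cells, so a fibroblast also had to hold at least 2 of 6 further markers that were added after the cells were seen. Immune cells, known to make little collagen, are given beside them as a comparison, and whether collagen UMIs in them came from free RNA, doublets or their own transcripts was not tested. Counts of 0 allowed up to 0.0129 CPM in tumour cells, 3.39 in fibroblasts, 9.54 in mural and 1.26 in endothelial cells over all tumours, for counting error only.

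Fibroblasts devoted 4.08% of their UMIs to collagens, mural cells 2.97%, endothelial cells 0.889% and tumour cells 0.2%. The classes also differed in makeup. In fibroblasts 83.5% of the collagen UMIs were fibrillar, and Col3a1 (30.7%), Col1a1 (27.4%) and Col1a2 (16.9%) led. In endothelial cells 99.1% belonged to basement membrane collagens, of which Col4a1 alone held 57.9% and Col4a2 32.9%. Mural cells lay between, with 55.8% fibrillar and 23.5% basement membrane UMIs, or 34.2% and 38.8% in the 86 of 100 mural cells that held no UMI of a fixed fibroblast marker. In tumour cells 50.2% of the collagen UMIs were of basement membrane collagens, 40.6% of other collagens and only 9.17% fibrillar. In tumour cells 8 members stood at 100 CPM or more, 8 between 10 and 100, 4 between 1 and 10 and 24 below 1.

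**Figure D1:**
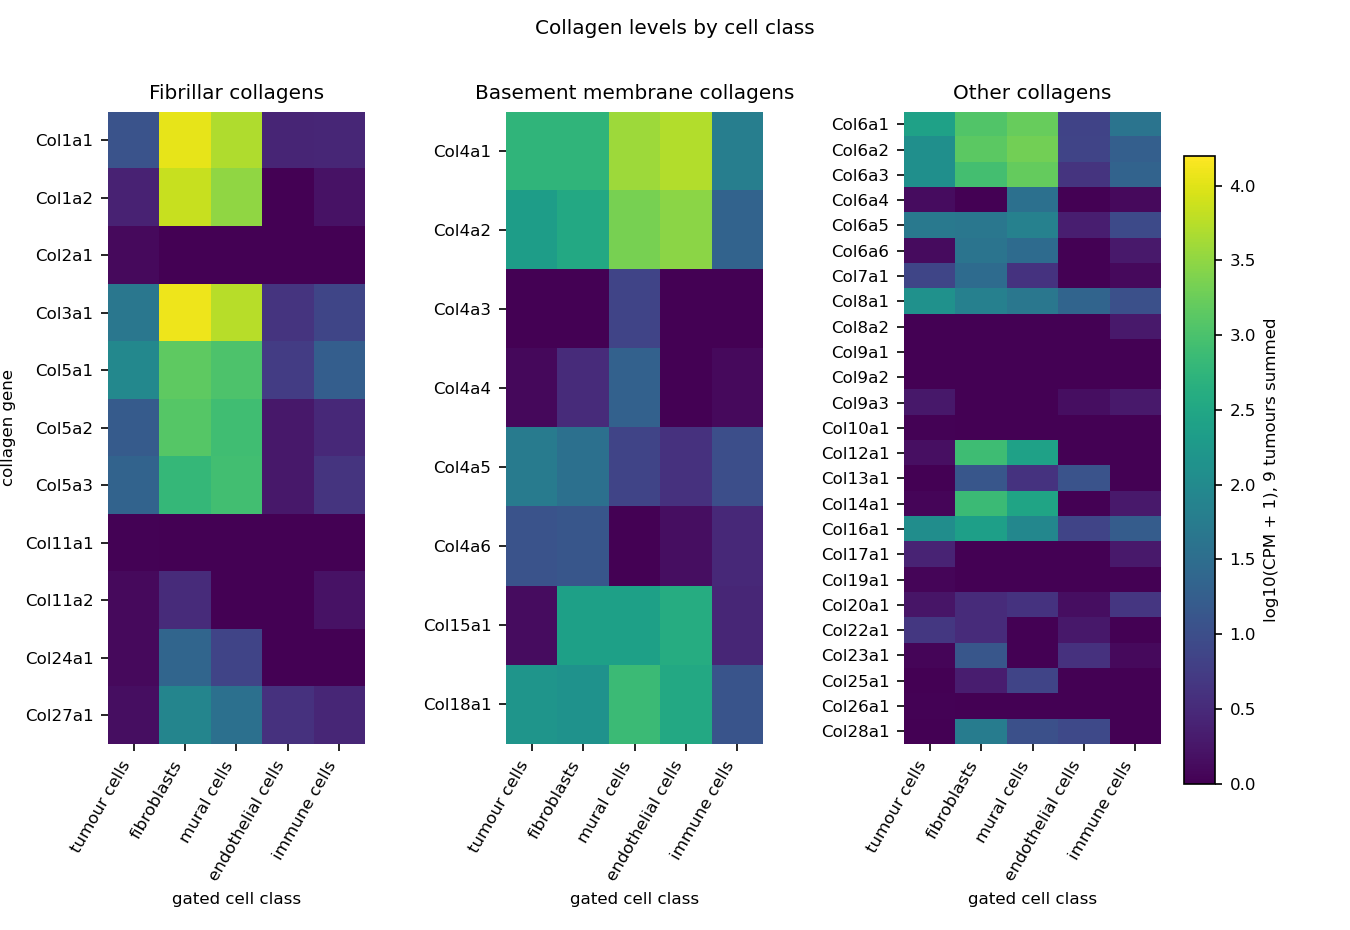
Level of every collagen in tumour cells, the 3 host classes and immune cells, as log10(CPM + 1) over the summed cells of all 9 tumours, by collagen family. Col1a1, Col1a2 and Col3a1 are brightest in fibroblasts, Col4a1 and Col4a2 in endothelial cells, and the tumour cell column is led by Col4a1, Col6a1 and Col4a2.

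The question which cells make which collagen was asked by setting each host class against the tumour cells of the same tumours. Against fibroblasts, in the 3 tumours with at least 20 fibroblasts (Kmt2c KO 1, Kmt2d KO 1 and Kmt2d KO 2), 16 of 30 collagens tested were higher in fibroblasts and 2 in tumour cells, where 11.5% and 11.6% of all genes tested were called in these directions. With at least 8 fibroblasts, 8 tumours entered and 20 of 32 were higher in fibroblasts and 2 in tumour cells (Col8a1 and Col4a5), against 17.6% and 22.0% of all genes. The Col4a5 call was lost under DESeq2 (adjusted p = 0.19), without TMM scaling (0.154) and without any of 6 libraries (0.06 to 0.132), namely WT 1, WT 3, Kmt2c KO 3 and each of Kmt2d KO. Against mural cells only 1 tumour had 20 of them, so at least 8 were asked for. In those 8 tumours 20 of 28 collagens were higher in mural cells (11.7% of all genes) and 4 in tumour cells (26.0%), namely Col4a5, Col4a6, Col8a1 and Col16a1. Of these Col4a6 and Col16a1 were lost under DESeq2 (adjusted p = 0.301 and 0.228) and without TMM scaling (0.0508 and 0.391). Mural cells held 0 Col4a6 UMIs, which allows up to 9.54 CPM, or 0.864 times the tumour cell level. The counts therefore cannot show how far below tumour cells Col4a6 lay. In mural cells with no UMI of a fixed fibroblast marker, an alternative chosen after seeing the data that left 6 tumours, 17 of 25 were higher in mural cells (9.83% of all genes) and 3 in tumour cells (20.9%). Col4a6 was then not called (adjusted p = 0.0574), and Col6a6, Col14a1 and Col24a1 were too low to test. Against endothelial cells, in all 9 tumours, 8 of 25 were higher in endothelial cells (25.4% of all genes) and 16 in tumour cells (36.9%). These shares are relative, and tumour cells held a median of 11694 UMIs per cell against 3774 in fibroblasts, 2426 in mural and 4780 in endothelial cells. Some members called higher in a host class had few tumour cell UMIs, among them Col28a1 (5), Col14a1 (28), Col24a1 (68), Col15a1 (93) and Col27a1 (95). The low-count filter read host and tumour sums together, so such members could enter through their host level. A member that entered this way could hardly be called higher in tumour cells.

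Type I and type III collagen, the main fibres of connective tissue, had their highest mean levels in fibroblasts, which were not tested against mural cells. The order did not hold in every tumour. In WT 1 mural cells exceeded fibroblasts for Col3a1 (21720 against 19570 CPM), Col1a1 (15900 against 14150) and Col1a2 (10200 against 8506). Col3a1 was 10180 ± 5631 CPM (SD, n = 9 tumours) in fibroblasts, with 19570, 9796 and 10490 in the WT against 8672, 3389 and 3524 in the Kmt2c KO and 15210, 15320 and 5624 in the Kmt2d KO tumours. Col1a1, the larger type I chain by count, was 14150, 2525 and 8256 CPM in the WT against 10590, 3786 and 5496 in the Kmt2c KO and 12900, 15240 and 4032 in the Kmt2d KO fibroblasts. For Col3a1 all Kmt2c KO fibroblasts lay below all WT fibroblasts and the Kmt2d KO tumours overlapped both, and for Col1a1 the 3 genotypes overlapped. Fibroblast levels rest on 4 to 46 cells per tumour and were not tested by genotype. Col1a2, the partner chain of Col1a1, was 8506, 1607 and 4946 CPM in WT against 6355, 2449 and 3408 in Kmt2c KO and 7664, 9875 and 3441 in Kmt2d KO fibroblasts. Both type I chains were low in tumour cells. Col1a2 was 0.205 to 0.400 CPM in WT tumour cells, and 5.55 to 15.4 CPM of Col1a1 were read over all tumours. In Kmt2c KO 1 the Col1a1 level of 14.3 CPM came from 486 UMIs, of which 233 were in 1 cell, and was 4.02 CPM without cells that held an added fibroblast marker. The largest Col1a2 level, 6.11 CPM in Kmt2c KO 1, came from 208 UMIs, of which 122 were in 1 cell, and was 0.365 CPM without cells that held an added fibroblast marker. The next, 1.97 CPM in Kmt2d KO 2, was spread over 54 cells (60 UMIs, at most 4 in 1 cell) and stayed at 1.64 CPM without such cells. Against tumour cells, Col3a1 was higher in fibroblasts by 9.13 ± 0.49 (log2 ± SE), Col1a1 by 10.04 and Col1a2 by 11.6 in the 3 tumours, and by 7.84 ± 0.29, 9.54 and 12.35 in the 8 tumours with at least 8 fibroblasts. At 1000 UMIs per cell, 84.3% of fibroblasts held a Col3a1 UMI, against 67.7% of mural, 4.29% of tumour, 0.794% of endothelial and 0.460% of immune cells.

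Type V collagen, which controls the width of type I fibres, had its other chains in both compartments. Col5a2 was 1536, 2066 and 1655 CPM in WT against 885, 662 and 1407 in Kmt2c KO and 1355, 1196 and 745 in Kmt2d KO fibroblasts, a mean of 1278 ± 458. Col5a1 was higher in fibroblasts than in tumour cells by 4.06 ± 0.32, though tumour cells held it at 59.5 to 115 CPM. Among type VI chains, Col6a2 was 1622, 459 and 1709 CPM in WT against 1043, 675 and 638 in Kmt2c KO and 1770, 1175 and 2363 in Kmt2d KO fibroblasts. Col6a1, the second collagen of tumour cells by level, was still higher in fibroblasts by 2.29 ± 0.29. Of types I, III, V and VI, Col1a1, Col3a1, Col5a1, Col5a2, Col5a3, Col6a1, Col6a2 and Col6a3 were higher in fibroblasts and in mural cells than in tumour cells and lower in endothelial cells.

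Mural cells held both fibrillar and basement membrane chains, and the fibrillar levels moved with markers of fibroblasts. The mural gate did not leave out cells with fibroblast markers, and 14 of the 100 mural cells held a UMI of at least 1 of the 8 fixed ones. Dcn was in 11.0% of mural cells at 916 CPM, Clec3b in 9.0%, Mfap5 in 7.0% and Dpt, Pi16 and Lum in 6.0% each, and none of the 8 was at 0 over all mural cells. Their summed level was 6945, 73.2 and 164 CPM in WT against 2706, 54.4 and 0 in Kmt2c KO and 7095, 9514 and 0 in Kmt2d KO mural cells. Col3a1 was 21720, 2251 and 1242 CPM in WT against 3747, 817 and 816 in Kmt2c KO and 5124, 17760 and 2013 in Kmt2d KO mural cells. Col1a1 was 15900, 3349 and 797 CPM in WT against 5413, 1388 and 2335 in Kmt2c KO and 4106, 14800 and 581 in Kmt2d KO mural cells. Both genes were highest in WT 1 and in Kmt2d KO 2, which had 3 mural cells. Col1a2 was highest in the same tumours, with 10200, 1812 and 914 CPM in WT against 3713, 817 and 478 in Kmt2c KO and 3153, 8299 and 774 in Kmt2d KO. Without the cells that held a fixed fibroblast marker, Col3a1 was 1575, 2254 and 1116 CPM in WT against 883, 879 and 816 in Kmt2c KO and 2028, 5479 and 2013 in Kmt2d KO. Col1a1 was then 473, 3570 and 311 CPM in WT against 2187, 1435 and 2335 in Kmt2c KO and 1975, 9420 and 581 in Kmt2d KO, with 2 to 20 cells per tumour. WT 1 then lay within the range of the others for both genes, while Kmt2d KO 2, with 2 cells, was the highest for both. Against tumour cells Col3a1 was higher in mural cells by 5.32 ± 0.19 with all mural cells and by 4.504 ± 0.22 without those cells, and Col1a1 by 7.55 ± 0.21 and 6.74 ± 0.25. Col4a1 varied less between tumours, with 2128, 5143 and 3350 CPM in WT against 2568, 4301 and 5401 in Kmt2c KO and 3646, 2326 and 4413 in Kmt2d KO mural cells, and over all tumours it was 3828 CPM with and 4531 CPM without the cells that held a fixed fibroblast marker. Col6a2 was 2421, 1995 and 1031 CPM in WT against 1665, 1606 and 2475 in Kmt2c KO and 2234, 3330 and 2400 in Kmt2d KO mural cells. With all mural cells no genotype stood apart for these genes, at 3 to 22 cells per tumour. Without the cells that held a fixed fibroblast marker, Col3a1 was lower in each Kmt2c KO tumour than in any other tumour. Mural levels were not tested by genotype.

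Type IV collagen, the network of every basement membrane, was made by tumour and vessel cells alike, at unequal levels. Col4a1 was 534 ± 100 CPM in tumour cells (SD, n = 9) and 5165 ± 804 in endothelial cells, and Col4a2, which assembles with it, 205 ± 39.6 and 2932 ± 450. Endothelial cells were higher by 3.20 ± 0.10 for Col4a1 and 3.76 ± 0.11 for Col4a2. Fibroblasts did not differ from tumour cells for Col4a1 beyond the error of 0.04 ± 0.28 (log2 ± SE, adjusted p = 0.939). Col15a1, a collagen between basement membranes and the fibres beneath, was 9.86 ± 0.18 higher in endothelial cells and 387 ± 125 CPM there. It was also, with Col27a1, higher in all 3 host classes than in tumour cells. Tumour cells held 93 UMIs of Col15a1 and 95 of Col27a1, so both could enter these tests through their host level. The Col27a1 call against endothelial cells was lost without Kmt2c KO 2 (adjusted p = 0.12) or Kmt2c KO 3 (0.0598). Col18a1, whose end fragment is endostatin, was 354 ± 89.1 CPM in endothelial and 156 ± 23.8 in tumour cells, and 1.06 ± 0.13 higher in endothelial cells. Col4a5, a chain of epithelial basement membranes, went the other way, with a difference, host minus tumour cells, of -4.10 ± 0.35 in endothelial and -3.41 ± 0.71 in mural cells.

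Col8a1, a short-chain network collagen, was the only member called higher in tumour cells than in all 3 host classes. It was 141, 118 and 116 CPM in WT against 135, 135 and 156 in Kmt2c KO and 97.3, 183 and 115 in Kmt2d KO tumour cells. Its log2 difference, host minus tumour cells, was -0.96 ± 0.32 in fibroblasts (adjusted p = 0.0150), -2.29 ± 0.41 in mural (1.79e-07) and -2.69 ± 0.29 in endothelial cells. The fibroblast call was lost under DESeq2 (adjusted p = 0.199) and without Kmt2d KO 1 (0.271) or Kmt2d KO 2 (0.476), which left 2 tumours. In the 8 tumours with at least 8 fibroblasts it was -1.14 ± 0.25 and held under each alternative run. At 1000 UMIs per cell, 12.3% of tumour cells held a Col8a1 UMI, against 5.03% of fibroblasts, 3.23% of mural, 1.59% of endothelial and 0.552% of immune cells. Col18a1 was also called higher in tumour cells than in fibroblasts (-0.89 ± 0.31, adjusted p = 0.0205), lost under DESeq2 (0.156), with 1 more marker asked of a fibroblast (0.162) and without Kmt2d KO 1 (0.121) or Kmt2d KO 2 (0.369). In the 8 tumours with at least 8 fibroblasts it was -0.29 ± 0.22 and was not called (0.313). The remaining members that were higher in tumour cells than in at least 1 host class, and lower than none, were Col4a5, Col4a6, Col6a5, Col7a1, Col16a1, Col17a1 and Col22a1. The Col17a1 call, against endothelial cells (-7.25 ± 2.80, adjusted p = 0.0301), was lost under DESeq2 (-1.03, 0.35). Its endothelial level was at or below what a count of 0 allows (1.26 CPM), which is 0.766 times the tumour cell level. With at least 8 fibroblasts per tumour, Col7a1 and Col16a1 were called higher in fibroblasts.

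**Figure D2:**
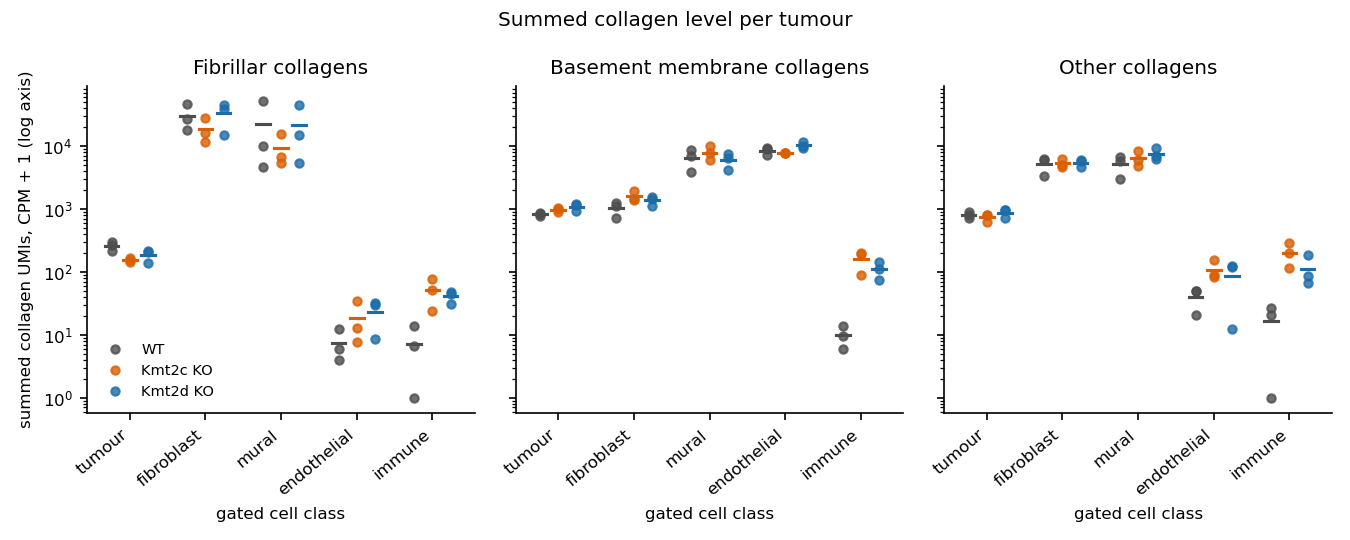
Summed CPM + 1 (log axis) of fibrillar, basement membrane and other collagens in each class, 1 point per tumour and a line at the mean of each genotype. Fibrillar sums lie at 135 to 300 CPM in tumour cells and 11650 to 46440 in fibroblasts, and basement membrane sums at 7271 to 11450 in endothelial cells.

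Whether loss of Kmt2c or Kmt2d moved collagens was asked in tumour cells, where 30 of the 44 members passed the low-count filter. The other 14 had pooled levels of at most 0.224 CPM. Fibrillar collagens together were 300, 269 and 215 CPM in WT against 142, 151 and 163 in Kmt2c KO and 205, 135 and 210 in Kmt2d KO tumour cells. Each tumour of both knockouts lay below each WT tumour. The sum does not stand for every member. Col3a1 (99.1 to 146 CPM in WT against 8.78 to 11.7 in Kmt2c KO and 11.96 to 65.2 in Kmt2d KO), Col5a2 and Col27a1 lay lower in each tumour of both knockouts. Col5a1 and Col5a3 lay higher in each of them. Col11a2 did so in Kmt2c KO only, and the other fibrillar members overlapped. The share of all genes without such overlap was not computed. Basement membrane collagens were 846, 842 and 758 CPM in WT against 894, 979 and 1023 in Kmt2c KO and 1139, 928 and 1205 in Kmt2d KO, with every knockout tumour above every WT tumour. The other collagens overlapped between the groups (704 to 906 CPM in WT against 630 to 809 in Kmt2c KO and 719 to 956 in Kmt2d KO). Between Kmt2c KO and WT 12 collagens were called, 6 higher and 6 lower, where 9.57% and 9.17% of all genes tested were called. The median log2 fold change of the 30 was 0.16, against -0.00 over all genes. Between Kmt2d KO and WT 1 was higher (1.04% of all genes) and 1 lower (1.23%). The median was 0.09, against 0.01 over all genes.

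Col3a1 fell furthest. It stood at 146, 132 and 99.1 CPM in the WT tumours and at 11.4, 11.7 and 8.78 in the Kmt2c KO tumours. The value of Kmt2c KO 1 came from 388 UMIs, of which 136 were in 1 cell, and was 5.51 CPM without cells that held an added fibroblast marker. In Kmt2d KO tumours it was 64.1, 11.96 and 65.2 CPM, so that Kmt2d KO 2 lay with the Kmt2c KO tumours and the other two between the groups. Against WT the change was -3.56 ± 0.52 in Kmt2c KO (adjusted p = 0.00203). For Kmt2d KO the change was -1.44 ± 0.47 (adjusted p = 0.151), and -0.98 ± 0.15 (0.00268) without Kmt2d KO 2. With no low-count filter it was also called (0.028). Col5a2, the minor chain of type V collagen, was 43.9, 41.7 and 31.3 CPM in WT against 5.20, 7.06 and 5.76 in Kmt2c KO and 18.6, 6.49 and 18.5 in Kmt2d KO. It fell by 2.70 ± 0.35 in Kmt2c KO and by 1.45 ± 0.33 in Kmt2d KO on the log2 scale (adjusted p = 0.00113 and 0.0491). The Kmt2d KO call held in 5 of 18 alternatives. It was lost without any 1 library other than Kmt2d KO 2 (0.0513 to 0.185), without TMM (0.0508), with only the 2 genotypes (0.112), and in tumour cells with no UMI of Ptprc, Pecam1, Cdh5 or Rgs5 (0.0537), at a 30% mitochondrial limit (0.0543) or with no UMI of an added fibroblast marker (0.0531). The fall in Kmt2c KO was called for both genes under all 18 alternatives, at -3.80 to -3.30 for Col3a1 and -2.84 to -2.59 for Col5a2. The genes are neighbours on chromosome 1, with 24.6 kb between them.

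The other type V chains lay above every WT tumour in each tumour of both knockouts. In the main fit they were called higher in Kmt2c KO and not in Kmt2d KO. Col5a1 was 78.8, 67.5 and 59.5 CPM in WT against 84.5, 104 and 115 in Kmt2c KO and 86.2, 83.5 and 87.1 in Kmt2d KO. It rose by 0.56 ± 0.12 in Kmt2c KO (adjusted p = 0.0108), under all 18 alternatives. In Kmt2d KO Col5a1 was not called, also not without Kmt2d KO 2 (0.32 ± 0.12, 0.168). Col5a3 was 16.8, 16.3 and 18.0 CPM in WT against 19.3, 20.9 and 22.4 in Kmt2c KO and 22.5, 21.7 and 22.6 in Kmt2d KO. Its rise of 0.29 ± 0.09 in Kmt2c KO (adjusted p = 0.0480) was lost in 14 of 18 alternatives. In Kmt2d KO its change of 0.36 ± 0.09 was not called (0.0746), but was under DESeq2 (0.039) and without Kmt2d KO 2 (0.0366). The ratio of Col5a1 to Col5a2 UMIs, chains that join in the common form of type V collagen, was 1.77 ± 0.14 in WT (SD, n = 3) and 17.0 ± 2.64 in Kmt2c KO tumour cells. In the Kmt2d KO tumours it was 4.63, 12.9 and 4.72. Col27a1, a fibrillar collagen of cartilage, rested on 95 UMIs in all and was 0.701, 0.694 and 0.716 CPM in WT against 0.323, 0.230 and 0.266 in Kmt2c KO and 0.450, 0.426 and 0.438 in Kmt2d KO. It was called lower in Kmt2c KO (-1.35 ± 0.32, adjusted p = 0.0162), but not under DESeq2 (0.0653) or without 1 of WT 1, WT 2, WT 3, Kmt2c KO 2 or Kmt2c KO 3 (0.0503 to 0.0674).

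**Figure D3:**
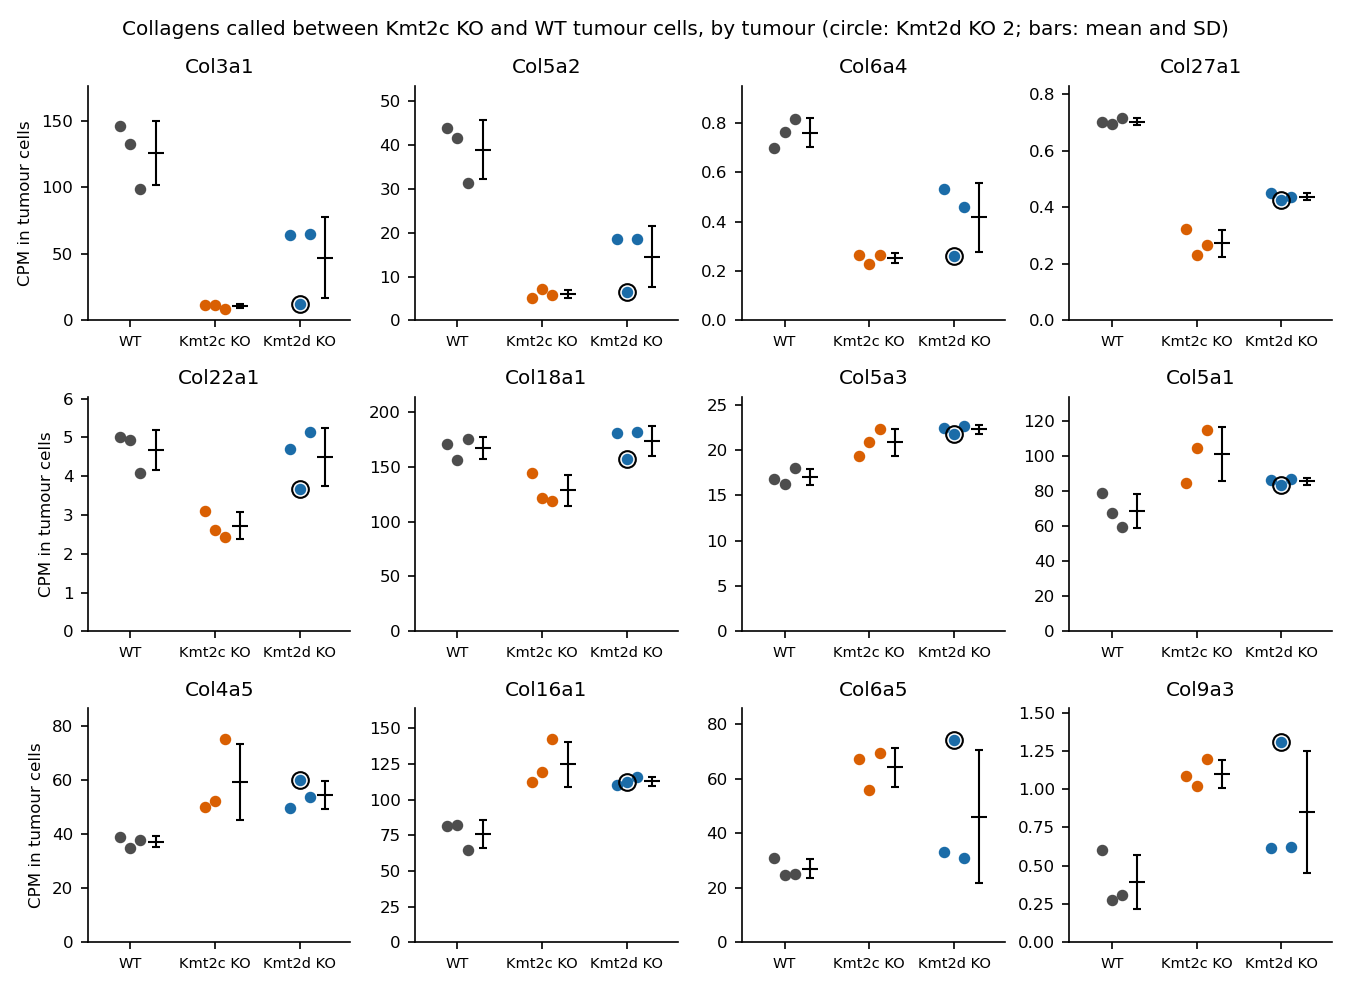
CPM in tumour cells of the 12 collagens called between Kmt2c KO and WT, 1 point per tumour, with the mean and SD of each genotype beside the points (n = 3). Kmt2d KO 2, circled, lies at 11.96 CPM for Col3a1 and 74.0 CPM for Col6a5, near the Kmt2c KO tumours, where Kmt2d KO 1 and Kmt2d KO 3 hold 64.1 and 65.2 CPM of Col3a1.

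Among basement membrane collagens Col4a5 rose and Col18a1 fell. Col4a5 was 38.8, 35.0 and 38.0 CPM in WT against 50.1, 52.5 and 75.4 in Kmt2c KO and 49.8, 60.1 and 54.0 in Kmt2d KO, with both knockouts above all WT tumours. Its change was 0.66 ± 0.13 in Kmt2c KO (adjusted p = 0.00821, called under all 18 alternatives) and 0.52 in Kmt2d KO (0.0746). The Kmt2d KO change was called under DESeq2 (0.0128), with no low-count filter (0.0187), without Kmt2c KO 3 (0.0209) and with only the 2 genotypes (0.0417). Col18a1 was 170, 156 and 175 CPM in WT against 144, 122 and 119 in Kmt2c KO and 180, 157 and 182 in Kmt2d KO. Its fall of 0.38 ± 0.11 in Kmt2c KO (adjusted p = 0.0319) was lost without 1 of WT 1, WT 2, WT 3, Kmt2c KO 2 or Kmt2c KO 3 (0.0636 to 0.121). Col4a1, the most abundant collagen of these cells, was 453, 455 and 377 CPM in WT against 496, 589 and 606 in Kmt2c KO and 639, 512 and 679 in Kmt2d KO. Each knockout tumour lay above each WT tumour, yet neither change was called (0.40 ± 0.13 in Kmt2c KO, adjusted p = 0.0539, and 0.48 in Kmt2d KO, 0.0845). Both were called under DESeq2 (adjusted p = 0.0172 and 0.00961), with no low-count filter (0.0193 and 0.0217) and without Kmt2d KO 2 (0.00988 and 0.00639, at 0.40 ± 0.10 and 0.60 ± 0.11). In all, the Kmt2c KO change was called in 8 of 18 alternatives and the Kmt2d KO change in 3. Col4a2 was 169, 186 and 156 CPM in WT against 195, 206 and 208 in Kmt2c KO and 259, 186 and 277 in Kmt2d KO. It was not called in Kmt2d KO (0.47, adjusted p = 0.126), but was under DESeq2 (0.0332), with no low-count filter (0.039) and without Kmt2d KO 2 (0.63 ± 0.09, 0.00189). Its change in Kmt2c KO (0.25, 0.238) was also called without Kmt2d KO 2 (0.0419).

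The microfibril chains of type VI moved unequally. Col6a5, an alternative chain known from skin, was 31.0, 24.8 and 25.2 CPM in WT against 67.0, 55.8 and 69.4 in Kmt2c KO and 33.2, 74.0 and 31.0 in Kmt2d KO. It rose by 1.24 ± 0.28 in Kmt2c KO (adjusted p = 0.0136), a call that was lost at changes of 1.202 without WT 2 (0.0618) and 1.22 without WT 3 (0.0555). Among the Kmt2d KO tumours, Kmt2d KO 2 alone reached the Kmt2c KO range. The core chain Col6a1 was 300.1, 281 and 252 CPM in WT against 151, 243 and 193 in Kmt2c KO and 379, 158 and 363 in Kmt2d KO, and was not called (-0.50 ± 0.29 in Kmt2c KO, adjusted p = 0.25). The core chain Col6a2 was 178, 175 and 127 CPM in WT against 54.1, 116 and 86.8 in Kmt2c KO and 184, 61.9 and 181 in Kmt2d KO, and was not called either (-0.90 ± 0.38 in Kmt2c KO, 0.127). Both were called lower in Kmt2c KO, at the same fold changes, without Kmt2d KO 2 (adjusted p = 0.0228 and 0.00862) and with only the 2 genotypes (0.0289 and 0.0114). In these fits 29.1% and 27.5% of all genes were called, against 18.7% in the main fit. Both fits leave out Kmt2d KO 2, which was picked out on collagens, so these calls are no independent support. Col6a4, another alternative chain, rested on 93 UMIs, at 0.701, 0.763 and 0.818 CPM in WT against 0.264, 0.230 and 0.266 in Kmt2c KO and 0.532, 0.262 and 0.459 in Kmt2d KO. Its call (-1.57 ± 0.37 in Kmt2c KO, adjusted p = 0.0163) was lost without WT 2 (0.0657), WT 3 (0.0593) or Kmt2c KO 2 (0.0564).

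Collagens that sit on fibrils rather than build them were led by Col16a1, the only member called higher in both knockouts. It was 81.8, 82.1 and 64.9 CPM in WT against 113, 120 and 143 in Kmt2c KO and 110, 112 and 116 in Kmt2d KO. It rose by 0.71 ± 0.10 in Kmt2c KO (adjusted p = 0.00214, under all 18 alternatives) and by 0.53 ± 0.10 in Kmt2d KO (0.0266). The Kmt2d KO call was lost without WT 1, WT 2, WT 3, Kmt2d KO 1 or Kmt2d KO 3 (0.06 to 0.102). Col22a1, known from tissue junctions, was 5.003, 4.93 and 4.09 CPM in WT against 3.11, 2.63 and 2.43 in Kmt2c KO and 4.70, 3.67 and 5.13 in Kmt2d KO. Its fall of 0.78 ± 0.19 in Kmt2c KO (adjusted p = 0.0184) was lost without WT 1, WT 2, Kmt2c KO 2 or Kmt2c KO 3 (0.0567 to 0.0748). Col9a3, a chain of cartilage collagen, rested on 202 UMIs and was 0.600, 0.278 and 0.307 CPM in WT against 1.09, 1.02 and 1.20 in Kmt2c KO and 0.613, 1.31 and 0.626 in Kmt2d KO. It was called higher in Kmt2c KO (1.504 ± 0.43, adjusted p = 0.0360), which was lost without WT 2, WT 3 or any Kmt2c KO library (0.0662 to 0.15) and with 2 stricter tumour cell gates (0.0734 and 0.0969).

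**Figure D4:**
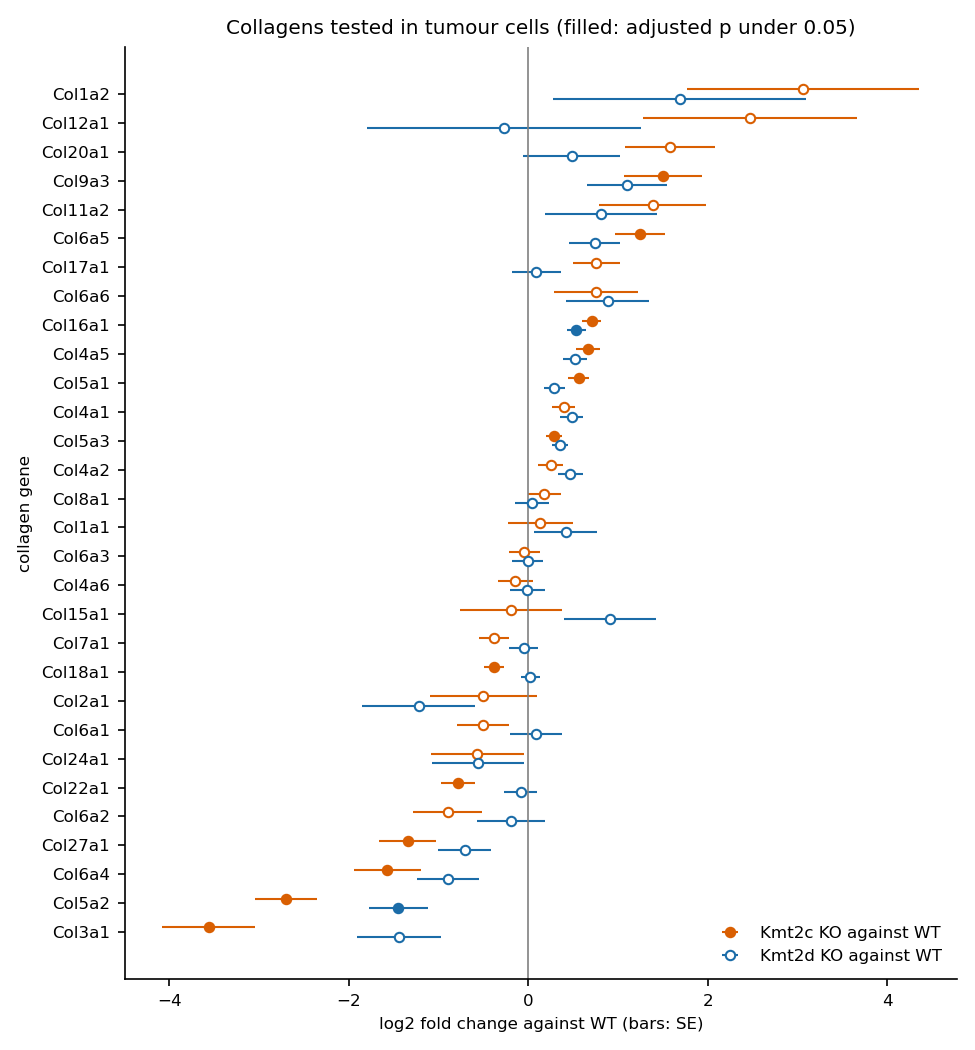
Log2 fold change against WT in tumour cells (x axis, bars are SE) of the 30 collagens tested, for Kmt2c KO and Kmt2d KO, with calls filled. Col3a1 (-3.56) and Col5a2 (-2.70) lie farthest to the left, and Col1a2 and Col12a1 at the top have wide errors and are not called.

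Kmt2d KO and Kmt2c KO tumour cells were then set against each other directly. By edgeR 0 of 30 collagens were called, where 0.0781% of all genes were. An unadjusted p under 0.05 was found for 9 (17.8% of all genes), and DESeq2 called 3 (4.12% of all genes). Col3a1 differed by 2.12 ± 0.49, Kmt2d KO minus Kmt2c KO, and was not called by edgeR (adjusted p = 0.0904), but was by DESeq2 (0.0163) and by edgeR with no low-count filter (0.00331). Without Kmt2d KO 2, 11 of 29 collagens were called where 19.7% of all genes were, 7 higher and 4 lower in Kmt2d KO, among them Col3a1 (2.58 ± 0.16, adjusted p = 7.31e-07), Col5a2 (1.60), Col6a2 (1.07) and Col6a1 (0.90) on the higher and Col6a5 (-1.02) and Col8a1 (-0.44) on the lower side. That library was picked out for lying near the Kmt2c KO tumours on collagens. Leaving it out therefore favours a difference, and these calls are no independent support for one. Without any other library 0 collagens were called (0 to 0.498% of all genes).

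The share of tumour cells with a UMI was read at a fixed depth as well. The share depends on the level and on how the UMIs spread over cells. In WT 1 it was 36.6% for Col6a2 at 178 CPM and 39.1% for Col3a1 at 146 CPM. It is no separate support for the fall of Col3a1 and Col5a2. Whether fewer cells held these genes or each cell held less was not tested. With every tumour cell thinned to 5000 UMIs, 39.1, 36.1 and 31.6% of WT cells held a Col3a1 UMI, against 2.24, 4.02 and 2.81% of Kmt2c KO and 22.3, 5.27 and 22.8% of Kmt2d KO cells. Unthinned shares were 47.1 to 53.4% in WT, 2.94 to 4.93% in Kmt2c KO and 9.12 to 30.03% in Kmt2d KO. The thinning left out 13 to 34 shallower cells per WT tumour and 155 to 667 per knockout tumour. For Col5a2 the thinned shares were 17.5 to 23.7% in WT, 2.39 to 3.36% in Kmt2c KO and 11.1, 3.55 and 11.6% in Kmt2d KO. Col6a5 went from 11.3 to 15.6% in WT to 23.7 to 29.1% in Kmt2c KO, and Kmt2d KO 2 held it in 30.8% of cells where the other Kmt2d KO tumours had 14.6 and 15.7%.

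**Figure D5:**
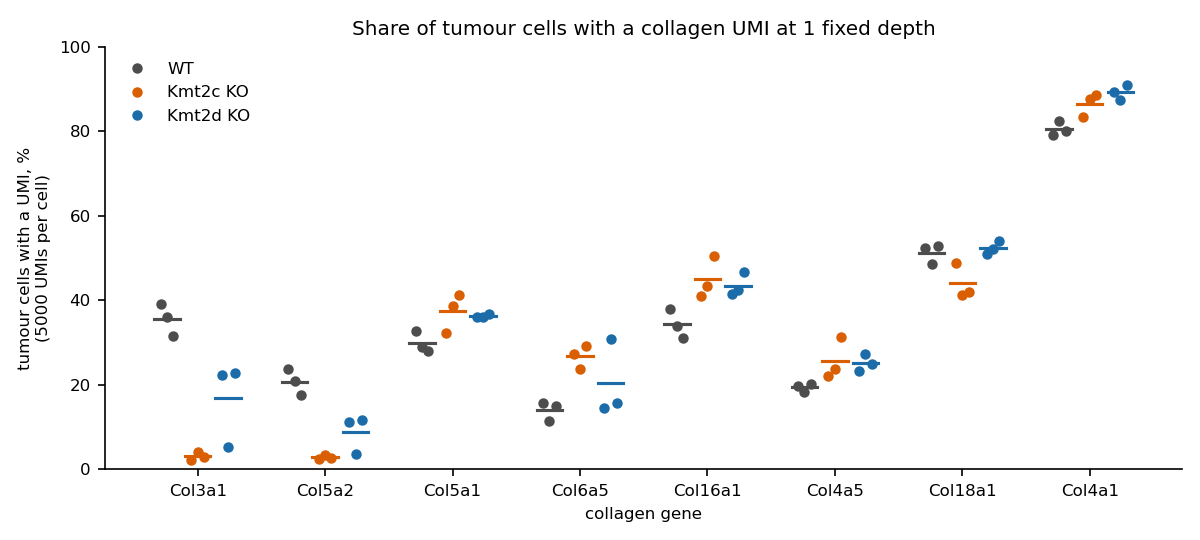
Share of tumour cells with at least 1 UMI of 8 collagens after thinning each cell to 5000 UMIs, 1 point per tumour and a line at the mean of each genotype. Col3a1 lies at 31.6 to 39.1% in WT and 2.24 to 4.02% in Kmt2c KO.

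Markers of other cells were read in tumour cells as well, and were not tested by genotype. The 8 fixed fibroblast markers, Pdgfra and Scara5 among them, summed to 447 ± 87.6 CPM in WT against 426 ± 62.1 in Kmt2c KO and 460 ± 138 in Kmt2d KO tumour cells (SD, n = 3), and all 8 had at least 1 UMI. The 7 fixed mural markers summed to 0.3002 to 0.972 CPM in WT against 0.763 to 5.58 in Kmt2c KO and 0.721 to 1.72 in Kmt2d KO, with overlap between the groups and all 7 with at least 1 UMI. The 6 added fibroblast markers summed to 1.64 to 2.30 CPM in WT tumour cells, 5.42 to 6.61 in Kmt2c KO and 2.67 to 7.73 in Kmt2d KO, all 6 with at least 1 UMI, and their part in the collagen values was not tested beyond one alternative. In that alternative, tumour cells without a UMI of the added markers, each collagen called in Kmt2c KO stayed called except Col5a3 (adjusted p = 0.0522). In immune cells all collagens together were 30.3 ± 23.6 CPM in WT against 410 ± 168 in Kmt2c KO and 260 ± 96.9 in Kmt2d KO (SD, n = 3). Where these UMIs came from, and whether the same source adds to tumour cells, was not tested. Krt8 in tumour cells was 550 to 569 CPM in WT against 235 to 339 in Kmt2c KO and 304 to 466 in Kmt2d KO.

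In endothelial cells only Col4a1, Col4a2, Col15a1 and Col18a1 passed the filter. Against WT 0 of the 4 were called by edgeR or DESeq2 in Kmt2c KO (7.84% of all genes tested) or in Kmt2d KO (0.0396%), with 0 and 1 at an unadjusted p under 0.05 (23.0% and 10.1% of all genes). Col4a1 was 5306, 5367 and 4095 CPM in WT against 4639, 4428 and 4610 in Kmt2c KO and 5824, 6668 and 5548 in Kmt2d KO, a change of -0.08 ± 0.16 in Kmt2c KO (adjusted p = 0.829) and 0.30 ± 0.16 in Kmt2d KO (0.523). Every Kmt2d KO tumour lay above every WT tumour, within an error that does not pass the test. Col4a2 was 3077, 2912 and 2561 CPM in WT against 2424, 2820 and 2525 in Kmt2c KO and 3342, 3857 and 2871 in Kmt2d KO. Col15a1 was 408, 317 and 350 CPM in WT against 301, 270 and 261 in Kmt2c KO and 644, 435 and 499 in Kmt2d KO, without overlap between the 3 groups. Its change in Kmt2d KO was 0.56 ± 0.19 against WT (adjusted p = 0.321). Between Kmt2d KO and Kmt2c KO it differed by 0.90 ± 0.20 and was not called by edgeR (adjusted p = 0.118), but was by DESeq2 (0.0476), with no low-count filter (0.0125) and without Kmt2d KO 2 (0.00278). Col18a1 was 420, 291 and 266 CPM in WT against 382, 295 and 446 in Kmt2c KO and 364, 492 and 229 in Kmt2d KO, and the groups overlapped. Col8a1, the fifth collagen of these cells, was too low to test. It was 24.2, 5.76 and 9.93 CPM in WT, against 33.5, 4.83 and 65.4 in Kmt2c KO and 0, 104 and 0 in Kmt2d KO, a mean of 27.5 ± 35.5, where immune cells held 0 to 28.7 CPM.

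Whether the genotype change itself differed between endothelial and tumour cells was asked with an interaction term. In that fit 2.71% of all genes differed for Kmt2c KO and 0.53% for Kmt2d KO, among them 2 collagens for Kmt2c KO (Col6a2 and Col16a1) and 1 for Kmt2d KO (Col6a2), both at 0 UMIs in WT endothelial cells. For Col4a1 the Kmt2c KO change in endothelial cells minus that in tumour cells was -0.59 ± 0.19 and was not called (adjusted p = 0.0658).

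The enzymes and receptors of the collagen pathway, a list of 47 genes chosen with earlier results of these data known, had 36 members tested in tumour cells. In Kmt2c KO 7 were higher and 4 lower than in WT, where 9.57% and 9.17% of all genes were, with a median log2 fold change of -0.00. In Kmt2d KO 1 was higher and 0 lower, against 1.04% and 1.23% of all genes. Prolyl and lysyl hydroxylases, which modify the chains before they wind, were on both sides, with P4ha1 (1.02 ± 0.21), P4ha2 (1.01 ± 0.26), Plod1 (0.76 ± 0.13) and Plod2 (0.51 ± 0.16) higher and P4ha3 (-1.13 ± 0.21) lower in Kmt2c KO. Crtap, a partner of a prolyl hydroxylase, was 6.81, 10.8 and 10.2 CPM in WT against 31.3, 34.4 and 28.6 in Kmt2c KO and 5.15, 23.1 and 6.65 in Kmt2d KO, and rose by 1.75 ± 0.47 in Kmt2c KO (adjusted p = 0.0277). Serpinh1, the chaperone that holds the collagen helix in the endoplasmic reticulum, was 213, 201 and 204 CPM in WT against 65.3, 66.9 and 51.4 in Kmt2c KO and 260, 81.3 and 263 in Kmt2d KO. It fell by 1.75 ± 0.35 in Kmt2c KO (adjusted p = 0.00882), and Kmt2d KO 2 again lay near the Kmt2c KO tumours. Sparc (-0.46 ± 0.11), which binds collagen, and the isomerase Ppib (-0.26 ± 0.08) fell with it, while Pcolce (0.37 ± 0.09), which aids removal of the propeptide, rose. Mrc2, the receptor that takes up collagen fragments, was called higher in both knockouts, by 0.78 ± 0.08 in Kmt2c KO (adjusted p = 0.000464) and 0.43 ± 0.08 in Kmt2d KO (0.0234). Its level was 96.2 to 113 CPM in WT against 171 to 199.8 in Kmt2c KO and 141 to 153 in Kmt2d KO. Of the same list, 25 of 41 genes tested were higher in fibroblasts than in tumour cells and 1 lower, where 11.5% and 11.6% of all genes were.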

How the data were processed

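Digested suspensions of 9 tumours, cleared of dead cells and debris on a Percoll gradient, were sequenced as 5′ single-cell libraries, and per the submitters' processing notes the authors ran Cell Ranger 7.0.1 on build mm10. The authors deposited raw UMI counts, 1 aggregated matrix of all cells by all genes. Library groups came from the letters of the authors' aggregation table. That X stands for WT, C for Kmt2c KO and D for Kmt2d KO was inferred from the study's comparison names. Which library is which GEO replicate number was not used here.

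Cells with 500 to 7500 genes and under 15% mitochondrial UMIs were kept, the study's own limits. Tumour cells held at least 1 H2BMc UMI. Host cells held neither H2BMc nor Krt8, no Ptprc (except immune cells), with fewer than 2 endothelial (except endothelial cells) and 2 mural (except mural cells) markers detected, and at least 2 of 8 fixed and 2 of 6 added fibroblast markers, 2 of 7 mural, 3 of 8 endothelial or 3 of 7 immune markers. These limits were set after the cells were seen, and doublets were not called beyond them. Members and lists were chosen with earlier results of these data known.

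UMIs were summed per tumour and class (tumour cells 9779795 to 47951145 UMIs per tumour) and tested with edgeR 4.0.16's quasi-likelihood test (filterByExpr, TMM, R 4.3.3) in 1 fit of all 9 tumours, or with tumour as a block between classes, at least 20 cells each. A call needed a p below 0.05 after Benjamini-Hochberg adjustment over all genes tested, the source of every adjusted p unless DESeq2 (1.42.0) is named. SEs were derived from the fold change and the F statistic. The script was tested on simulated counts. Named with values per tumour are collagens called between genotypes in tumour cells and the 5 highest by mean CPM in each class. Alternatives changed the test, the filter, the scaling, the gates and the libraries. Intervals and floors cover counting error only. Labels do not say more of the tumours than that they are separate samples, so p-values measure the spread between these.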

Additional observations from a re-analysis of the deposited data

Results flagged for a closer look

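Collagens stood out once, in the test of whether the genotype change differed between endothelial and tumour cells. For Col16a1 the Kmt2c KO change against WT was called different (edgeR, adjusted p = 0.021089). Endothelial cells held 0 Col16a1 UMIs in every WT tumour, 4, 4 and 0 in Kmt2c KO and 0, 0 and 7 in Kmt2d KO. Immune cells of the same tumours held 0 UMIs in every WT tumour, 7, 22 and 15 in Kmt2c KO and 1, 2 and 5 in Kmt2d KO. For Col6a2 the change was called different in Kmt2c KO (adjusted p = 0.025327) and in Kmt2d KO (0.0038601). Endothelial cells held 0 Col6a2 UMIs in every WT tumour, 3, 1 and 0 in Kmt2c KO and 0, 0 and 11 in Kmt2d KO, and immune cells 0 in every WT tumour, 6, 31 and 11 in Kmt2c KO and 7, 0 and 5 in Kmt2d KO. With WT at 0 the fitted folds depend on the prior count and are not given. Where these UMIs came from was not tested.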

How the results depend on the processing

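Of 250 values of the collagens called between genotypes in tumour cells, recomputed under each alternative, 191 were still called, 59 were not and 0 changed direction. The count of collagens called between Kmt2c KO and WT, 12, ran from 5 (without WT 2) to 18 (without Kmt2d KO 2) when 1 library was left out, with 6 without WT 3 or Kmt2c KO 2 (9.5% and 10.7% of all genes, 18.7% with all libraries) and 7 without Kmt2c KO 3 (11.0%). Over all genes 2640 of 14089 were called, 1256 of 14387 without WT 2 and 4140 of 14208 without Kmt2d KO 2. The count between Kmt2d KO and WT, 2, was 6 under DESeq2 (4.99% of all genes, 2.27% in the main analysis) or with no low-count filter (2.2%), 1 without TMM, without cells that held Ptprc, Pecam1, Cdh5 or Rgs5, with a 30% mitochondrial limit or without cells with an added fibroblast marker (2.02 to 2.17%), and 0 to 6 without 1 library (0.68 to 5.79%). Between Kmt2d KO and Kmt2c KO 0 (0.0781% of all genes) became 3 under DESeq2 (4.12%), 2 with no filter (2.22%) and 0 to 11 without 1 library (0 to 19.7%). In endothelial cells with no filter 1 was called in Kmt2c KO (4.03% of all genes) and 1 in Kmt2d KO (0.938%), where the main count was 0. The cause was not tested, other than the libraries and genes each alternative leaves out or adds. Total counts of collagens called between host and tumour cells stayed within 1.5 times. The collagens higher in tumour cells did not, and the shares of all genes called in that direction are given beside them. Against fibroblasts (20 cells) 2 became 0 under DESeq2 or without Kmt2d KO 1 or Kmt2d KO 2 (11.6% of all genes became 3.9, 5.68 and 3.23%). Against fibroblasts (8 cells) 2 became 1 under DESeq2 (22.0 to 13.9%), without TMM (16%) or without any of 6 libraries (18.7 to 21.2%). Against mural cells 4 became 2 under DESeq2 or without TMM (26.0 to 11.0% in both). Without TMM the median log2 difference of all genes moved from -0.65 to -0.06 for mural cells and from -0.24 to -0.05 for fibroblasts (8 cells), and the share of called genes that were higher in the host class from 31.1 to 60.4% and from 44.4 to 55.9%, with 20 collagens higher and 2 lower in mural cells and 22 and 1 in fibroblasts. Mural cells at 20 per tumour left 1 tumour, so that comparison was not run. No paired analysis was possible because, between genotypes, the library names carry no replicate number of the labels. Stromal classes held 3 to 61 cells per tumour.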

Other observations

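Among collagens outside the 5 highest of fibroblasts, chosen after their values were seen, Col12a1 and Col14a1, which decorate type I fibrils, spread widely between tumours. Col12a1 was 323, 536 and 1277 CPM in WT fibroblasts, 679, 2317 and 3016 in Kmt2c KO and 301, 324 and 180 in Kmt2d KO. Col14a1 was 1425, 306 and 378 CPM in WT fibroblasts, 558, 26.5 and 43.5 in Kmt2c KO and 944, 872 and 103 in Kmt2d KO. Each tumour gave 4 to 46 fibroblasts, and these levels were not tested by genotype.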
